A study of Rattus norvegicus with 23 samples.

Results

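The 10 genes of the core circadian transcription loop were followed in hearts and kidneys of rats with experimental kidney disease. They were the activators Arntl (also written Bmal1), Npas2 and Clock and the repressors Per1, Per2, Per3, Cry1, Cry2, Nr1d1 and Nr1d2. The genes were chosen by name as known parts of the loop and matched through the symbols in the authors' tables. All 10 were found among the 32552 gene identifiers of the count files, and all 10 passed the filter on low counts in each organ.

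Sprague-Dawley rats aged 13 weeks were studied in 3 groups. AVF+NX rats had a 5/6th partial nephrectomy together with a fistula that joined the end of the jugular vein to the side of the carotid artery. NX rats had the partial nephrectomy alone, and Sham rats had sham surgery. Tissue was taken 4 weeks after surgery and gave 23 polyadenylated RNA libraries, 4 per organ and group except for 3 in heart Sham. No group had a fistula without nephrectomy. The nephrectomy is a model of reduced kidney mass, so the kidneys of both operated groups were remnants of tissue. The labels give no clock hour of collection, and for genes that cycle over the day a change of level and a change of phase cannot be told apart in these samples.

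In mammals ARNTL pairs with CLOCK or with its relative NPAS2, and the pair switches on genes through a DNA element called the E-box, among them the Per, Cry and Nr1d genes. PER and CRY proteins then hold back the ARNTL pairs. NR1D1 and NR1D2, also called REV-ERB alpha and beta, repress Arntl through elements called ROREs, where the ROR receptors activate it. Both arms together make a daily rhythm in which Arntl and Npas2 peak at about the opposite time of day from Per3, Nr1d1 and the output factor Dbp. Heart and kidney both hold such a clock, which is set by signals that include feeding and glucocorticoid hormones.

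Printed here are the promoter windows of the loop genes that held a match to a clock-related motif, a choice made after the windows were searched. Of these Arntl, Per2 and Cry2 were also called in at least 1 comparison. They cover 250 bases before to 50 bases after the annotated start, from RefSeq on build GRCr8, and 9 of the 10 genes had an entry, Cry1 being without one. Capitals mark every match, on either strand, to 4 motifs. These were the E-box, spelled CACGTG, and its variant the E′-box, spelled CACGTT and reading AACGTG where it lies on the other strand. The RORE core was spelled TAGGTNA and the D-box TTATGNAA, with N for any base. No match overlapped another. Arntl lies on the plus strand at chr1:176766078-176766377, Per2 on the minus strand at chr9:99496944-99497243, Cry2 on the minus strand at chr3:98860388-98860687 and Nr1d1 on the minus strand with windows at chr10:84231763-84232062 and chr10:84229405-84229704.
Arntl: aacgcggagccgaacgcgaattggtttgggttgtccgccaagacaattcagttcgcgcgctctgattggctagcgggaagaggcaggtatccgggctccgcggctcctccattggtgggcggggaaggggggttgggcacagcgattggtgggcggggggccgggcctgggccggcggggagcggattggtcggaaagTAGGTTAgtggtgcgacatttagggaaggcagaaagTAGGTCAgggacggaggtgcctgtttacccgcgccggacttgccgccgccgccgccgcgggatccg
Per2: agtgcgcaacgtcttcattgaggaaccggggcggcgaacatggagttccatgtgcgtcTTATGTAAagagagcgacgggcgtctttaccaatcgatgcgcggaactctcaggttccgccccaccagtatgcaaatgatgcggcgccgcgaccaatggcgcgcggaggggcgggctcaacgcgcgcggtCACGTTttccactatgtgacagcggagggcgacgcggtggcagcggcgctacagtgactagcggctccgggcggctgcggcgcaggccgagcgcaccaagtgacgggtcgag
Cry2: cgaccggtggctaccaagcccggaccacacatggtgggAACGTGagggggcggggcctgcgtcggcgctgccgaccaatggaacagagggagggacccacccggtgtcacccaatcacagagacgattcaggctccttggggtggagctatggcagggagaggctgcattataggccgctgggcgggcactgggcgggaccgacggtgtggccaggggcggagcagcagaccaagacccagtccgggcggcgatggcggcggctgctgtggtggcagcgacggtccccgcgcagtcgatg
Nr1d1 window 1: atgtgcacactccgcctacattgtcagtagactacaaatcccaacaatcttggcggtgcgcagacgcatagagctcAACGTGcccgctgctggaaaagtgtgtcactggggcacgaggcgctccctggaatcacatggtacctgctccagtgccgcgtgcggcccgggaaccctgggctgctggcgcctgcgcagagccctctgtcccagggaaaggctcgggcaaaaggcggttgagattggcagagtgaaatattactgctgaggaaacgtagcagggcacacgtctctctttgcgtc
Nr1d1 window 2: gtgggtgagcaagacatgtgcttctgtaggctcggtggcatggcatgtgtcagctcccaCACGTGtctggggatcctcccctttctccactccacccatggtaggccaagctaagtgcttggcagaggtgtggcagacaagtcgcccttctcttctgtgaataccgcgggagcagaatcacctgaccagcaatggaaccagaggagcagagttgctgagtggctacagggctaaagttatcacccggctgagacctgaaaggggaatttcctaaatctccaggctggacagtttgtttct

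The Arntl window held 2 RORE cores, TAGGTTA at positions -52 to -46 from the start and TAGGTCA at -16 to -10. Per2 had a CACGTT at -62 to -57 and a D-box at -192 to -185. Cry2 had an E′-box at -212 to -207 on the other strand, and the Nr1d1 windows had one at -174 to -169 on the other strand and a CACGTG at -191 to -186. Among all 33365 RefSeq promoter windows of this length, 6.43% held an E-box, 4.84% an E′-box, 8.72% a RORE core and 3.67% a D-box. The windows of Npas2, Clock, Per1, Per3 and Nr1d2 held none of these letters. A match is a string of letters in a window and was not measured as a bound site.

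Library totals ran from 9069354 to 48079431 counts. Levels are library-scaled counts (CPM) on one scale over all 23 libraries, and a gene is called here when its adjusted p in edgeR's fit over all genes of the organ was below 0.05. Calls by other tools are named as theirs. Markers separated the organs: the summed cardiomyocyte markers ran from 57120 to 79240 CPM in heart and from 7.761 to 17.76 CPM in kidney. The 4 proximal tubule markers summed to 6427 to 9525 CPM in AVF+NX kidneys and 7795 to 11420 CPM in NX kidneys, against 11770 to 14460 CPM in Sham kidneys, and to at most 2.803 CPM in any heart. The 5 fibroblast markers, which include the collagen genes Col1a1 and Col3a1, summed to 2985 to 4814 CPM in AVF+NX hearts and 1927 to 3181 CPM in NX hearts, against 1827 to 2457 CPM in Sham hearts. In kidney they summed to 2240 to 5016 CPM after AVF+NX and 704.6 to 2390 CPM after NX, against 381.2 to 582.2 CPM after Sham. The 5 macrophage markers summed to 308.6 to 418.3, 214.3 to 330.1 and 197.3 to 215.5 CPM in AVF+NX, NX and Sham hearts, and to 693.5 to 1584, 245 to 756.2 and 207.3 to 258.8 CPM in the kidneys of the same groups. The 3 B and plasma cell markers found summed to 107.3 to 242.4 CPM in AVF+NX kidneys and 5.263 to 40.55 CPM in NX kidneys, against 0.7814 to 2.408 CPM in Sham kidneys, and the 3 T cell markers to 17.37 to 32.95 and 2.498 to 9.177 CPM, against 1.401 to 2.019 CPM. The 3 endothelial markers found summed to 668.8 to 864.6 CPM in AVF+NX hearts and 559.2 to 754.7 CPM in NX hearts, against 445.4 to 503.4 CPM in Sham hearts. In kidney they went the other way, at 209.6 to 237.7 CPM after AVF+NX and 211.7 to 242.7 CPM after NX, against 241.5 to 258.3 CPM after Sham. All the markers found in these lists were above 0 in every group of the organ described. Fewer cells of a type and less RNA per cell cannot be told apart in whole tissue, and the part of these shifts in the results below was not tested.

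Per kilobase of exon, Nr1d1 had the highest mean level of the 10 genes in all 6 groups, from 23.02 CPM per kb in NX kidneys to 53.6 CPM per kb in NX hearts. In Sham hearts it was followed by Nr1d2, Per1, Cry2, Per2, Clock, Per3, Cry1, Npas2 and Arntl, the last at 1.47 CPM per kb. In Sham kidneys the order was the same except that Npas2, at 1.20 CPM per kb, came after Arntl. In the operated groups the lowest mean was that of Per3 in AVF+NX hearts, NX hearts and NX kidneys (3.29, 2.25 and 2.60 CPM per kb) and that of Npas2 in AVF+NX kidneys (3.07 CPM per kb). With the libraries of an organ pooled over groups and ordered by mean level, each gene overlapped the next. The pooled ranges include the differences between groups, and overlap within a group was not examined.

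**Figure D1:**
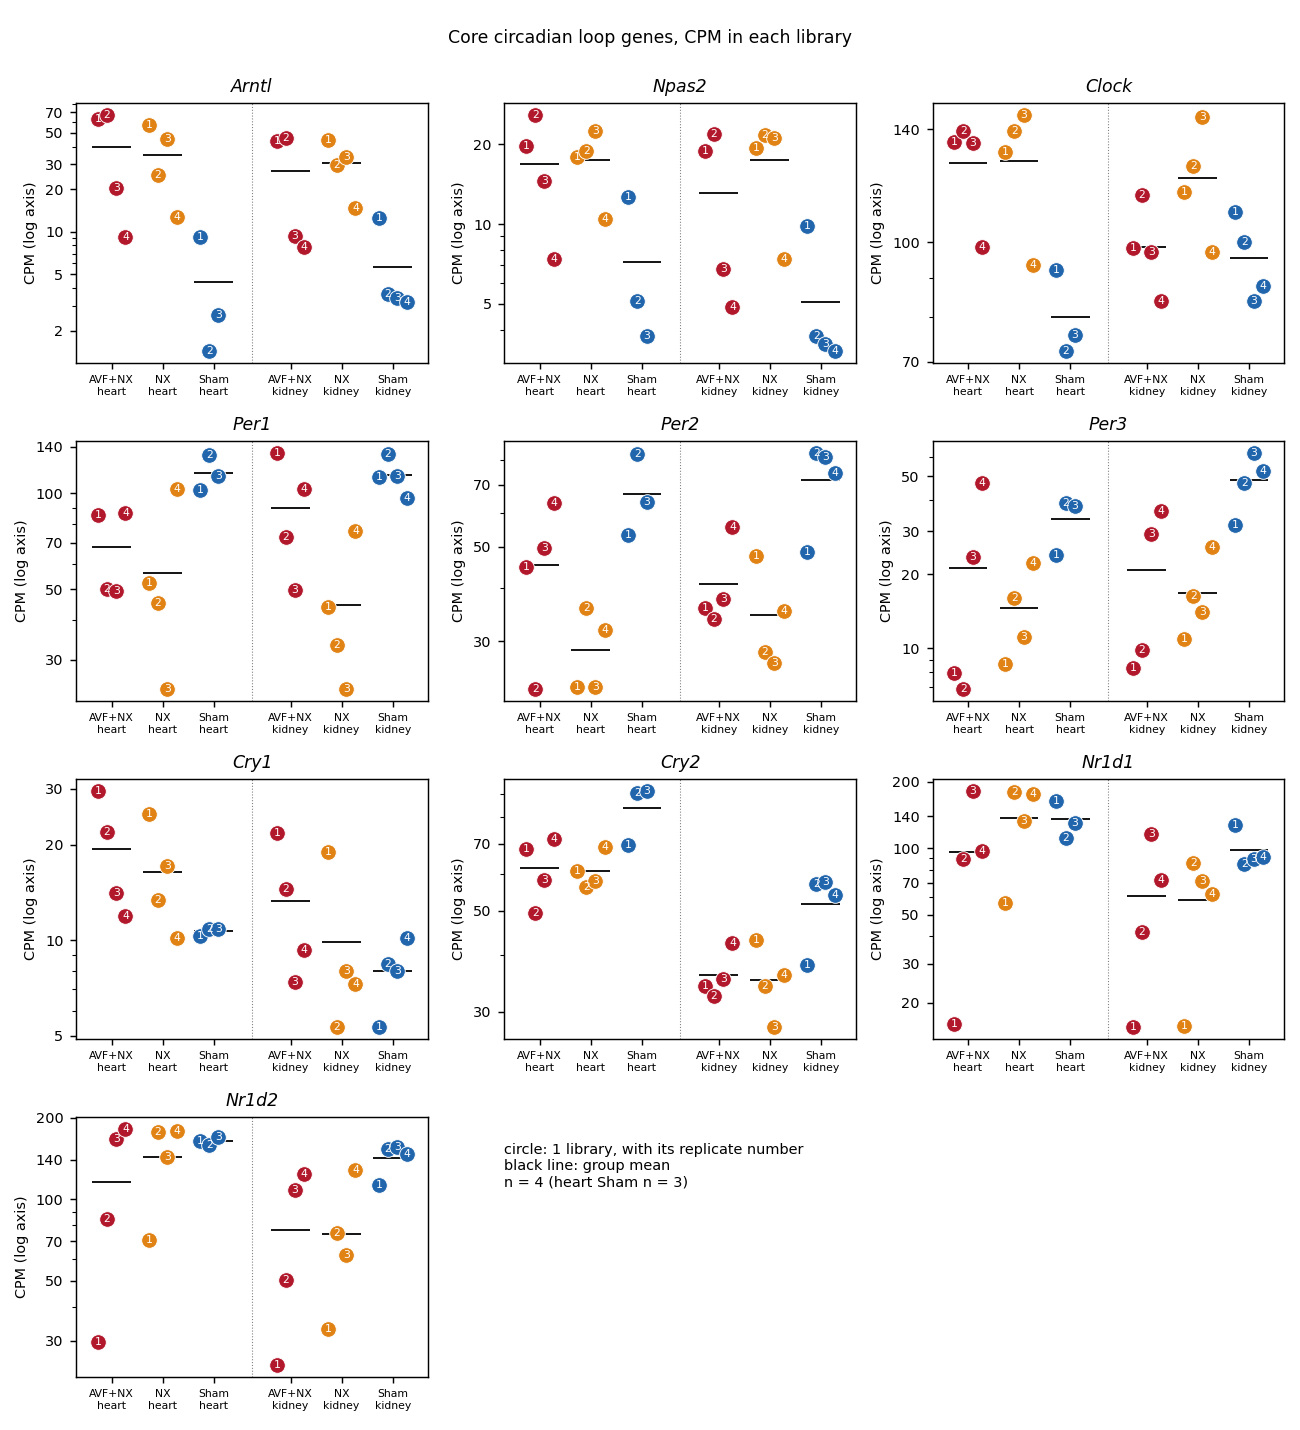
CPM of each gene (log axis) in every library of AVF+NX, NX and Sham hearts and kidneys; circles carry the replicate number and lines are group means. Arntl spans 1.44 to 66.9 CPM in heart and 3.19 to 45.6 CPM in kidney, and Clock only 72.4 to 146 CPM and 83.9 to 145 CPM.

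Arntl, the activator that the loop cannot do without, rose in both organs after AVF+NX. It lies on chromosome 1 from 178039063 to 178137465 in the coordinates of the count files, whose genome build is not given in the sources used here. In hearts it had 62.2, 66.9, 20.3 and 9.25 CPM after AVF+NX and 57.2, 25.2, 45.5 and 12.6 CPM after NX, against 9.13, 1.44 and 2.57 CPM after Sham. AVF+NX replicates 1 and 2 were high, and AVF+NX replicate 4 stood beside Sham replicate 1, just above it on this scale and just below it when the hearts were scaled alone. The log2 fold change over Sham was 3.07 ± 0.92 (SE) with AVF+NX (adjusted p = 0.0305) and 2.92 ± 0.93 with NX (adjusted p = 0.176, not called). The AVF+NX call was lost without AVF+NX replicate 1 or 2 or Sham replicate 2 or 3, where the log2 fold change was 2.70 to 2.80 and the adjusted p 0.0598 to 0.0963. Without Sham replicate 1 the log2 fold changes were 4.21 with AVF+NX (adjusted p = 0.0349) and 4.06 with NX (adjusted p = 0.37). For NX hearts DESeq2 (adjusted p = 0.0262) and limma voom (adjusted p = 0.0481) called Arntl.

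In kidneys Arntl had 44.0, 45.6, 9.37 and 7.85 CPM after AVF+NX and 44.8, 29.5, 34.0 and 14.7 CPM after NX, against 12.4, 3.65, 3.38 and 3.19 CPM after Sham. All 4 NX kidneys were above the 4 Sham kidneys, while AVF+NX replicates 3 and 4 were below Sham replicate 1. The log2 fold change over Sham was 2.29 ± 0.68 with AVF+NX (adjusted p = 0.0294) and 2.49 ± 0.68 with NX (adjusted p = 0.0956, not called). Both operated groups are compared with the same Sham libraries, so their fold changes are not independent. The AVF+NX call was lost without AVF+NX replicate 1 or 2 or Sham replicate 2, 3 or 4, with log2 fold changes of 1.90 to 2.12 and adjusted p of 0.0782 to 0.0977. Without Sham replicate 1 the log2 fold changes were 2.98 with AVF+NX (adjusted p = 0.0156) and 3.18 with NX (adjusted p = 0.0741). For NX kidneys DESeq2 (adjusted p = 0.0163) and limma voom (adjusted p = 0.0373) called Arntl.

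Npas2, the relative of Clock that can replace it as the partner of ARNTL, was higher on average after both operations, and edgeR called it in no comparison. In hearts it had 19.7, 25.9, 14.6 and 7.40 CPM after AVF+NX and 18.01, 18.9, 22.4 and 10.4 CPM after NX, against 12.7, 5.11 and 3.80 CPM after Sham. In kidneys it had 19.0, 21.9, 6.75 and 4.88 CPM after AVF+NX and 19.4, 21.6, 21.1 and 7.42 CPM after NX, against 9.80, 3.78, 3.52 and 3.33 CPM after Sham. In every comparison with Sham 1 or 2 operated libraries lay below Sham replicate 1, so the groups overlapped. The 4 log2 fold changes over Sham were 1.16 ± 0.46 (AVF+NX heart), 1.23 ± 0.47 (NX heart), 1.40 ± 0.55 (AVF+NX kidney) and 1.79 ± 0.55 (NX kidney), with adjusted p from 0.0714 to 0.196. Limma voom called all 4 (adjusted p 0.0102 to 0.0485) and DESeq2 that in NX kidneys (adjusted p = 0.0458). edgeR called the AVF+NX effect without AVF+NX replicate 4 or Sham replicate 1 in either organ (adjusted p 0.0229 to 0.0399).

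Clock rose in AVF+NX hearts. It had 135, 139, 134 and 98.6 CPM in AVF+NX hearts and 131, 139, 146 and 93.5 CPM in NX hearts, against 92.0, 72.4 and 75.8 CPM in Sham hearts. Every operated heart was above every Sham heart, with replicate 4 of each operated group closest to them. The log2 fold change over Sham was 0.58 ± 0.15 with AVF+NX (adjusted p = 0.00971) and 0.63 ± 0.15 with NX (adjusted p = 0.141, not called). The AVF+NX call was kept without any 1 library (adjusted p 0.0057 to 0.0453). It was lost with the log2 total count or an index of short structured RNA genes as a term in the fit. Over the 8 alternatives other than leaving out 1 library, the log2 fold change was 0.28 to 0.69 and the adjusted p at most 0.389. For NX hearts DESeq2 (adjusted p = 0.00823) and limma voom (adjusted p = 0.0113) called Clock, as did edgeR without NX replicate 4 (adjusted p = 0.0463).

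In kidneys Clock had 98.4, 115, 97.1 and 84.0 CPM after AVF+NX and 116, 125, 145 and 97.0 CPM after NX, against 109, 100, 83.9 and 87.7 CPM after Sham. AVF+NX and Sham kidneys overlapped, with a log2 fold change of 0.06 ± 0.13 (95% interval -0.19 to 0.31, adjusted p = 0.771). With NX it was 0.36 ± 0.13 (adjusted p = 0.174). The effect of AVF+NX on Clock was larger in heart than in kidney by 0.61 ± 0.22 on the log2 scale (adjusted p = 0.0376), the only call among the 10 genes in a test where 27.9% of all genes were called. That call was kept only without heart AVF+NX replicate 4, heart Sham replicate 1, kidney AVF+NX replicate 2 or kidney Sham replicate 3 or 4; without each of the other 10 libraries the difference was 0.54 to 0.61 and the adjusted p 0.051 to 0.0979.

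Of the repressors, Per2 fell after both operations in kidney. It had 36.0, 33.9, 37.7 and 55.7 CPM in AVF+NX kidneys and 47.7, 28.3, 26.8 and 35.5 CPM in NX kidneys, against 48.8, 83.0, 81.0 and 74.7 CPM in Sham kidneys. The NX kidneys were all below the Sham kidneys, though NX replicate 1 nearly reached Sham replicate 1, and AVF+NX replicate 4 was above Sham replicate 1. The log2 fold change over Sham was -0.81 ± 0.22 with AVF+NX (adjusted p = 0.0184) and -1.03 ± 0.22 with NX (adjusted p = 0.0453). The AVF+NX call was lost without AVF+NX replicate 1 or 2 or Sham replicate 2 or 3 (adjusted p 0.0511 to 0.0601). The NX call was kept only without NX replicate 3 or Sham replicate 1, and the adjusted p was 0.0568 to 0.143 without each of the others.

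In hearts Per2 had 44.8, 23.2, 49.6 and 63.3 CPM after AVF+NX and 23.5, 36.0, 23.5 and 31.9 CPM after NX, against 53.4, 82.7 and 63.8 CPM after Sham. The NX hearts were all below the Sham hearts, and only AVF+NX replicate 4 was above the lowest Sham heart. The log2 fold change was -0.65 ± 0.29 with AVF+NX (adjusted p = 0.104) and -1.25 ± 0.30 with NX (adjusted p = 0.141), neither of them called by edgeR. Limma voom called both (adjusted p 0.0108 and 0.0182), DESeq2 called the NX effect (adjusted p = 0.00401), and edgeR the AVF+NX effect without AVF+NX replicate 4 (adjusted p = 0.0346).

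Cry2, which codes for one of the cryptochromes that bind and silence the ARNTL pairs, fell in both organs after AVF+NX. In hearts it had 68.3, 49.5, 58.3 and 71.8 CPM after AVF+NX and 61.0, 56.4, 58.0 and 68.9 CPM after NX, against 69.5, 90.6 and 91.4 CPM after Sham. In kidneys it had 34.1, 32.5, 35.5 and 42.4 CPM after AVF+NX and 43.1, 34.1, 27.8 and 36.2 CPM after NX, against 38.1, 57.1, 57.8 and 54.0 CPM after Sham. Sham replicate 1 was the lowest Sham library in each organ and stood among or next to the operated libraries.

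The log2 fold change of Cry2 over Sham was -0.52 ± 0.15 in AVF+NX hearts (adjusted p = 0.0183) and -0.51 ± 0.15 in AVF+NX kidneys (adjusted p = 0.0271). The heart call was lost without AVF+NX replicate 2 or Sham replicate 2 or 3 (adjusted p 0.0502 to 0.0863), and the kidney call without AVF+NX replicate 1 or 2 or Sham replicate 2, 3 or 4 (adjusted p 0.0664 to 0.0776). With NX it was -0.49 ± 0.15 in heart (adjusted p = 0.154) and -0.53 ± 0.15 in kidney (adjusted p = 0.101), where edgeR called it without Sham replicate 1 (adjusted p = 0.0484) and DESeq2 called it with all libraries (adjusted p = 0.026). Limma voom called both NX effects (adjusted p 0.0249 in heart and 0.0468 in kidney). The AVF+NX heart call was lost with the log2 total count or the short structured RNA index as a term in the fit. Over the 8 alternatives other than leaving out 1 library, that log2 fold change was -0.61 to -0.15 and the adjusted p at most 0.622. Cry2 was also the gene of the loop whose level differed between the organs after sham surgery, 0.69 ± 0.16 higher in heart on the log2 scale (adjusted p = 0.000395, where 71.2% of all genes were called). The other 9 genes ran from -0.53 to 0.54 in that test, with adjusted p of 0.167 or more.

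Per3, a period gene with a large daily swing, had 7.95, 6.86, 23.5 and 46.8 CPM in AVF+NX hearts and 8.61, 16.1, 11.2 and 22.3 CPM in NX hearts, against 24.0, 38.9 and 37.97 CPM in Sham hearts. In kidneys it had 8.36, 9.85, 29.2 and 36.3 CPM after AVF+NX and 10.97, 16.3, 14.1 and 25.9 CPM after NX, against 31.9, 47.2, 62.3 and 52.8 CPM after Sham. The NX libraries lay below all Sham libraries in both organs, while AVF+NX replicates 1 and 2 were low and replicate 4 lay within the Sham range or, in heart, above it. edgeR called none of the 4 log2 fold changes, at -0.79 ± 0.63 and -1.24 ± 0.64 in AVF+NX and NX hearts and -1.21 ± 0.44 and -1.49 ± 0.44 in AVF+NX and NX kidneys (adjusted p 0.0647 to 0.351). Limma voom called all but that in NX hearts (adjusted p 0.00593 to 0.0353), DESeq2 that in NX kidneys (adjusted p = 0.0411), and edgeR the AVF+NX effect in each organ without AVF+NX replicate 4 (adjusted p 0.0403 in heart and 0.0258 in kidney).

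Per1, which responds to glucocorticoids as well as to the clock, had 85.5, 49.9, 49.4 and 86.8 CPM in AVF+NX hearts and 52.3, 45.3, 24.3 and 103 CPM in NX hearts, against 103, 132 and 113 CPM in Sham hearts. In kidneys it had 134, 73.0, 49.6 and 103 CPM after AVF+NX and 44.0, 33.4, 24.4 and 76.4 CPM after NX, against 112, 133, 113 and 97.0 CPM after Sham. AVF+NX hearts and NX kidneys were all below their Sham libraries, and AVF+NX kidneys spread across and beyond the Sham range. The log2 fold changes over Sham were -0.86 ± 0.42 (AVF+NX heart), -1.08 ± 0.43 (NX heart), -0.33 ± 0.34 (AVF+NX kidney) and -1.32 ± 0.35 (NX kidney), with adjusted p from 0.0901 to 0.525. Limma voom called all but that in AVF+NX kidneys (adjusted p 0.00735 to 0.0113), and DESeq2 that in NX kidneys (adjusted p = 0.00277).

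Cry1 was the one repressor with a positive fold change in all 4 comparisons with Sham. It ran from 11.9 to 29.5 CPM in AVF+NX hearts and from 10.2 to 25.1 CPM in NX hearts, against a narrow 10.3 to 10.9 CPM in Sham hearts. In kidneys it ran from 7.38 to 21.8 CPM after AVF+NX and from 5.35 to 18.9 CPM after NX, against 5.34 to 10.2 CPM after Sham. Replicate 1 was the highest library in each operated group of each organ. The log2 fold changes ran from 0.32 ± 0.42 in NX kidneys to 0.79 ± 0.34 in AVF+NX hearts, and edgeR called none (adjusted p 0.0892 to 0.743). In AVF+NX hearts limma voom (adjusted p = 0.0332) and DESeq2 (adjusted p = 0.0449) called Cry1, as did edgeR without AVF+NX replicate 4 (adjusted p = 0.0445).

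Nr1d1 and Nr1d2, the receptors that repress Arntl, spread widely between replicates, and edgeR called neither in any comparison. Nr1d1 had 16.0, 89.3, 182 and 97.8 CPM in AVF+NX hearts and 56.8, 180, 133 and 176 CPM in NX hearts, against 163, 112 and 131 CPM in Sham hearts. It ran from 15.6 to 116 CPM in AVF+NX kidneys and from 15.7 to 85.8 CPM in NX kidneys, against 85.2 to 127 CPM in Sham kidneys. Replicate 1 was the lowest library of both operated groups in both organs, for Nr1d1 and for Nr1d2 alike. Log2 fold changes over Sham ran from -0.73 to -0.02 for Nr1d1 and from -0.90 to -0.24 for Nr1d2, with adjusted p of 0.196 or more. Limma voom called Nr1d2 in AVF+NX kidneys (adjusted p = 0.0348). Nr1d1 shares 263 of its 2549 exon bases with Thra on the other strand, so its counts are uncertain where reads were counted without strand, a setting not given in the sources used here.

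**Figure D2:**
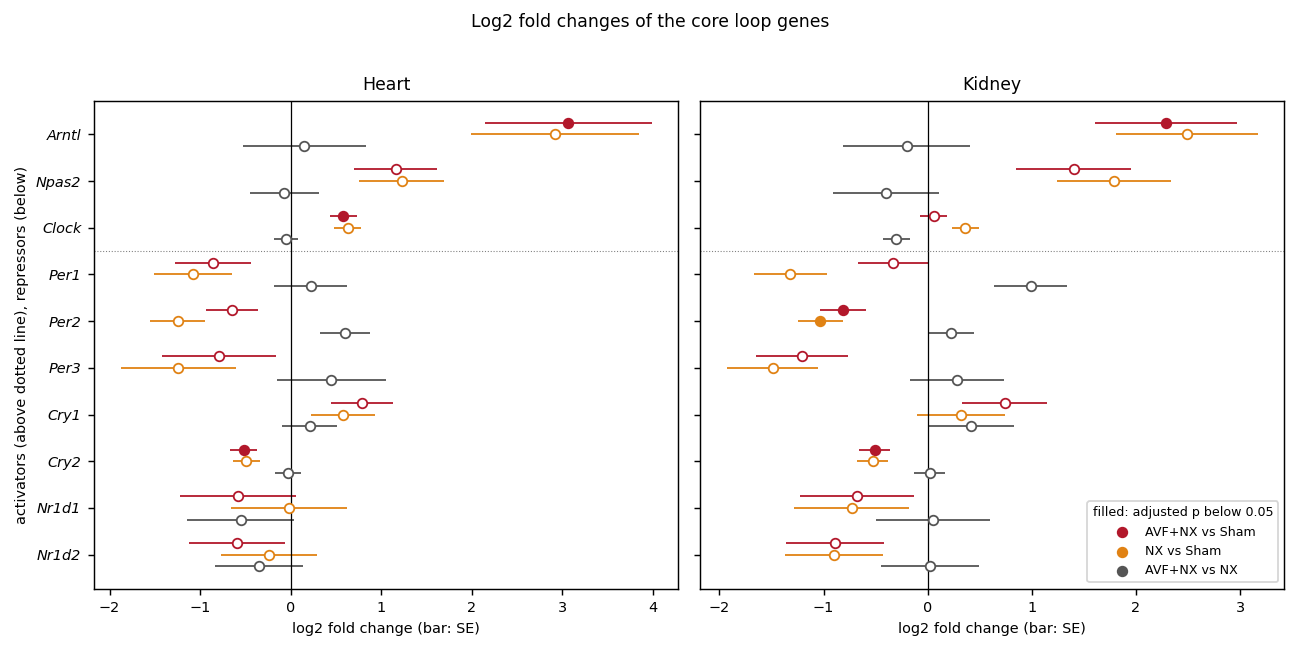
Log2 fold change (bars: SE) of each gene in heart and kidney for AVF+NX against Sham, NX against Sham and AVF+NX against NX; filled points have an adjusted p below 0.05. Activators lie right of 0 and repressors other than Cry1 left of 0 against Sham. Between the operated groups, heart differences lie on both sides of 0, and in kidney activators lie left and repressors right of it.

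Counted together, 3 of the 10 genes were called in AVF+NX hearts against Sham (Arntl and Clock higher, Cry2 lower), where 34.1% of all genes tested were called. In AVF+NX kidneys against Sham 3 of 10 were called (Arntl higher, Per2 and Cry2 lower), where 25.1% of all genes were called. Both shares are near the background. The heart count was 1 without AVF+NX replicate 2 or Sham replicate 2 or 3 and 7 without AVF+NX replicate 4. The kidney count was 0 without AVF+NX replicate 1 or 2 or Sham replicate 2 or 3, 1 without Sham replicate 4 and 5 without AVF+NX replicate 4. In NX kidneys against Sham 1 of 10 was called (Per2 lower), where 1.31% of all genes were called. The count was 2 (Per2 and Cry2) without Sham replicate 1 and 0 without NX replicate 1, 2 or 4 or Sham replicate 2, 3 or 4. In NX hearts against Sham edgeR called 0 of 10 genes and 0% of all genes. There 6 of the 10 and 2662 of 12794 genes had an unadjusted p below 0.05, DESeq2 called 3 of the 10 (Arntl, Clock and Per2) and limma voom 6, and edgeR called 1 (Clock) without NX replicate 4.

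The directions were alike in the 4 comparisons with Sham, which share control libraries within an organ. All 3 activators had positive and 6 of 7 repressors negative log2 fold changes in each. The median over the activators was 1.16, 1.23, 1.40 and 1.79 in AVF+NX hearts, NX hearts, AVF+NX kidneys and NX kidneys. The median over the repressors was -0.59, -0.49, -0.68 and -0.90, while the median over all genes tested lay between -0.01 and 0.02.

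No gene was called between the operated groups. In hearts, AVF+NX against NX, edgeR called 0 of 10 genes and 0.336% of all genes, and none of the 10 had an unadjusted p below 0.05. Log2 fold changes there ran from -0.55 to 0.60, the highest being Per2 (0.60 ± 0.28, adjusted p = 0.234). In kidneys edgeR called 0 of 10 and 6.07% of all genes, and 2 of the 10 had an unadjusted p below 0.05. Per1 was 0.99 ± 0.35 higher in AVF+NX than in NX kidneys on the log2 scale (95% interval 0.30 to 1.67, adjusted p = 0.121), and DESeq2 and limma voom called that gene alone, as edgeR did without AVF+NX replicate 3 or NX replicate 4. For Arntl the intervals of the difference were wide, -1.18 to 1.48 in heart and -1.39 to 1.00 in kidney. In kidneys all 3 activators had negative and all 7 repressors positive log2 fold changes (medians -0.30 and 0.22). In hearts 2 of 3 activators were negative and 4 of 7 repressors positive (medians -0.05 and 0.21). These directions were not tested as a set.

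Apart from Clock after AVF+NX, no gene of the loop was called when the effects were compared between heart and kidney. edgeR called 0 of 10 for the NX effect, where 0.158% of all genes were called, and 0 of 10 for the difference between AVF+NX and NX, where 1.12% were called. No gene of the 10 had an unadjusted p below 0.05 in either test. The interval of the organ difference for Arntl after AVF+NX ran from -1.45 to 3.18, too wide to show that the organs responded alike. The fit treated heart and kidney libraries as independent, though same-numbered libraries had r of 0.95 within groups for Arntl. A fit that pairs the organs was not run, so the width of a paired interval is not known.

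Groups with no overlapping library can be counted without a model, and the genes so found differ in part from those called. In AVF+NX hearts 3 genes lay wholly above Sham (Arntl, Clock and Cry1) and 1 wholly below (Per1), where 48.4% of all genes did not overlap. Cry2, called there by edgeR, overlapped. In NX hearts 2 lay above (Arntl and Clock) and 3 below (Per2, Per3 and Cry2), where 15.8% of all genes did not overlap. In NX kidneys 1 lay above (Arntl) and 3 below (Per1, Per2 and Per3), where 9.58% did not overlap. All 10 overlapped in AVF+NX kidneys against Sham, the 3 called genes included, where 27.9% of genes did not, and in AVF+NX against NX, where 9.86% of heart genes and 11.6% of kidney genes did not. With the hearts scaled alone, Arntl in AVF+NX hearts and Cry2 in NX hearts overlapped Sham as well.

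In the authors' deposited tables, which rest on another test, 3 of the 10 genes were up and 2 down in AVF+NX hearts against Sham, where 40.4% of the listed genes passed. The authors' deposited table for AVF+NX kidneys against Sham had 2 up and 2 down, where 31.1% passed. For NX hearts against Sham the authors' deposited table had Arntl and Clock up and Per2 and Per3 down, where 0.726% passed. For NX kidneys against Sham the authors' deposited table had Arntl and Npas2 up and Per1, Per2, Per3 and Cry2 down, where 5.85% passed. The authors' deposited tables called none of the 10 in AVF+NX against NX in either organ, where 3.4% passed in heart and 7.86% in kidney.

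Replicates of 1 group differed more for these genes than for most. The biological coefficient of variation, the relative spread between replicates beyond counting error, was 0.71 for Arntl in heart and 0.61 in kidney, against a median of 0.14 over all genes in each organ. Only 0.367% of heart genes and 1.49% of kidney genes had a larger one. The median over the 10 genes was 0.39 in heart and 0.41 in kidney. Clock and Cry2 were the exceptions, at 0.14 for both in heart and at 0.14 and 0.15 in kidney.

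The difference between the mean log2 CPM of the 3 activators and that of the 7 repressors gives the balance of the loop in each library, as a description with no test. In hearts it was 0.81, 0.82, -0.67 and -1.72 after AVF+NX and 0.55, -0.26, 0.47 and -1.26 after NX, against -1.42, -3.04 and -2.85 after Sham. In kidneys it was 0.66, 0.67, -1.14 and -1.73 after AVF+NX and 0.80, 0.56, 0.83 and -0.84 after NX, against -0.98, -2.43, -2.61 and -2.59 after Sham. Both organs showed the same arrangement, with AVF+NX split into a high pair (replicates 1 and 2) and a low pair, and with Sham replicate 1 above the other Sham libraries.

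The group means were -0.19 ± 1.24 and -0.13 ± 0.84 in AVF+NX and NX hearts (SD, n = 4 each), against -2.44 ± 0.89 in Sham hearts (n = 3). They were -0.38 ± 1.24 and 0.34 ± 0.79 in AVF+NX and NX kidneys, against -2.15 ± 0.78 in Sham kidneys (n = 4 each). AVF+NX replicate 4 lay below Sham replicate 1 in both organs, AVF+NX replicate 3 did so in kidney, and every NX library lay above every Sham library of its organ.

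**Figure D3:**
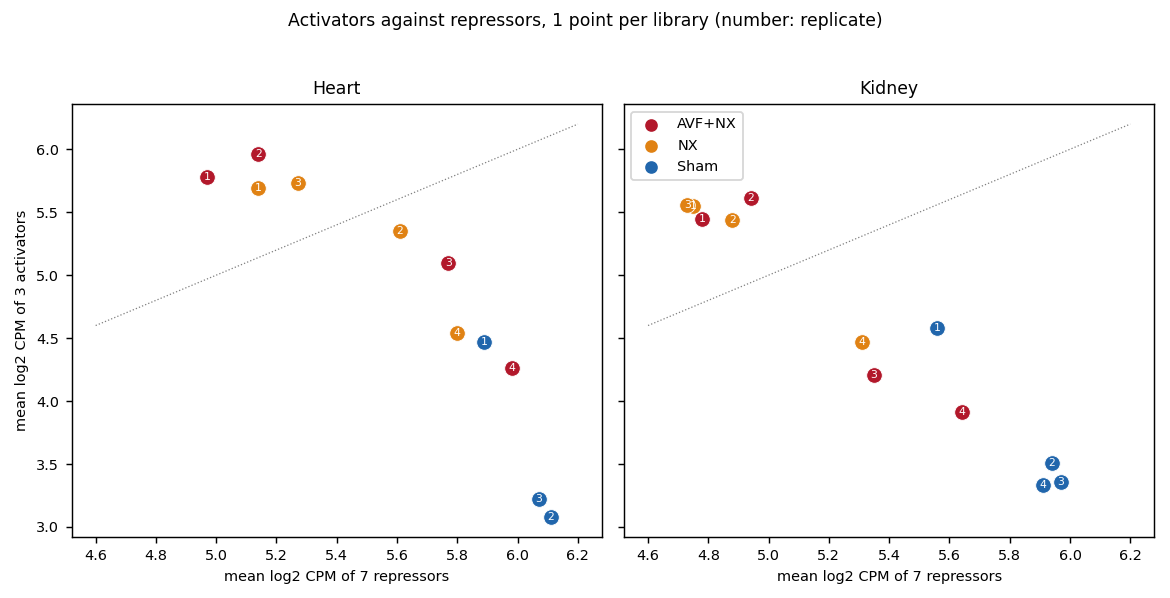
Mean log2 CPM of the 3 activators (vertical) against the mean of the 7 repressors (horizontal), 1 point per library with its replicate number; the dotted line marks equality. Points run from upper left (AVF+NX replicates 1 and 2 and most NX libraries) to lower right (Sham replicates 2 to 4), and the balance runs from 0.83 down to -3.04.

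Across the libraries of an organ, several of the other genes followed Arntl closely, some directly and some inversely. Relations were computed for the 9 other genes over 11 heart and 12 kidney libraries, with two-sided permutation p-values adjusted over all 18. The permutations ignored the surgical groups, so these p-values mix differences between groups with the spread within them. No p-value was computed for r within groups. Npas2 followed Arntl with a Pearson r of 0.94 in heart (Spearman 0.92, adjusted permutation p = 0.000396) and 0.98 in kidney (Spearman 0.93, adjusted permutation p = 0.00018). Per3 ran against it, with r of -0.90 in heart (Spearman -0.94, adjusted permutation p = 0.00063) and -0.98 in kidney (Spearman -0.97, adjusted permutation p = 0.00018). Without the 2 libraries farthest from the median of Arntl, r was 0.88 and 0.96 for Npas2 and -0.95 and -0.97 for Per3 in heart and kidney.

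Taken within the surgical groups, r was 0.89 and 0.97 for Npas2 and -0.92 and -0.96 for Per3 in heart and kidney. Clock had r of 0.94 in heart and 0.72 in kidney, Per2 -0.83 and -0.84, Cry2 -0.87 and -0.82, and Nr1d2 -0.61 and -0.88, all with adjusted permutation p of 0.0478 or less. Their Spearman rho ran from 0.59 to 0.90 in size, and r without the 2 farthest libraries from 0.58 to 0.87. Within groups their r was 0.82 and 0.70 for Clock, -0.80 and -0.55 for Per2, -0.67 and -0.56 for Cry2 and -0.66 and -0.85 for Nr1d2 in heart and kidney. By rank the heart relation of Nr1d2 had a Spearman rho of -0.59 with an adjusted permutation p of 0.074.

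Per1, Cry1 and Nr1d1 followed Arntl less evenly. Per1 had r of -0.72 in heart (adjusted permutation p = 0.0153) and -0.52 in kidney (adjusted permutation p = 0.0934), and within kidney groups r was -0.00. Cry1 followed Arntl in heart (r = 0.81, adjusted permutation p = 0.00419), while r was 0.42 in kidney (adjusted permutation p = 0.185). Nr1d1 had r of -0.42 in heart (adjusted permutation p = 0.204) and -0.65 in kidney (adjusted permutation p = 0.0216). Spearman rho was -0.72 and -0.43 for Per1, 0.84 and 0.30 for Cry1, and -0.37 and -0.71 for Nr1d1 in heart and kidney. In the plot of Arntl against the other genes, the lowest Nr1d1 and the highest Cry1 values stand at the high end of Arntl, while at its low end Nr1d1 lies in the upper part of its range and Cry1 below the middle of its own.

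A correlation of 0.8 or more in size, a limit chosen after the values were seen, was reached by 6 of 9 genes in heart and 5 of 9 in kidney. Among all genes it was reached by 2.15% in heart and 2.06% in kidney. The log2 total count had r of 0.57 with Arntl in heart (permutation p = 0.0689, adjusted over 3 relations 0.207) and -0.38 in kidney (permutation p = 0.23). AVF+NX hearts held 11889483 to 48079431 counts, against 9894716 to 11866042 in Sham hearts. With the log2 total count as a term in the fit, the Arntl fold change of AVF+NX over Sham hearts was 2.22 (adjusted p = 0.413) and only 2 of all 12794 genes were called. An index of 63 short structured RNA genes, centred on the mean of the hearts, was -0.89 to -0.28 in AVF+NX hearts and -1.02 to 1.00 in NX hearts, against 0.79 to 0.84 in Sham hearts. With that index as a term the same Arntl fold change was 3.67 (adjusted p = 0.183), and 58 genes were called.

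**Figure D4:**
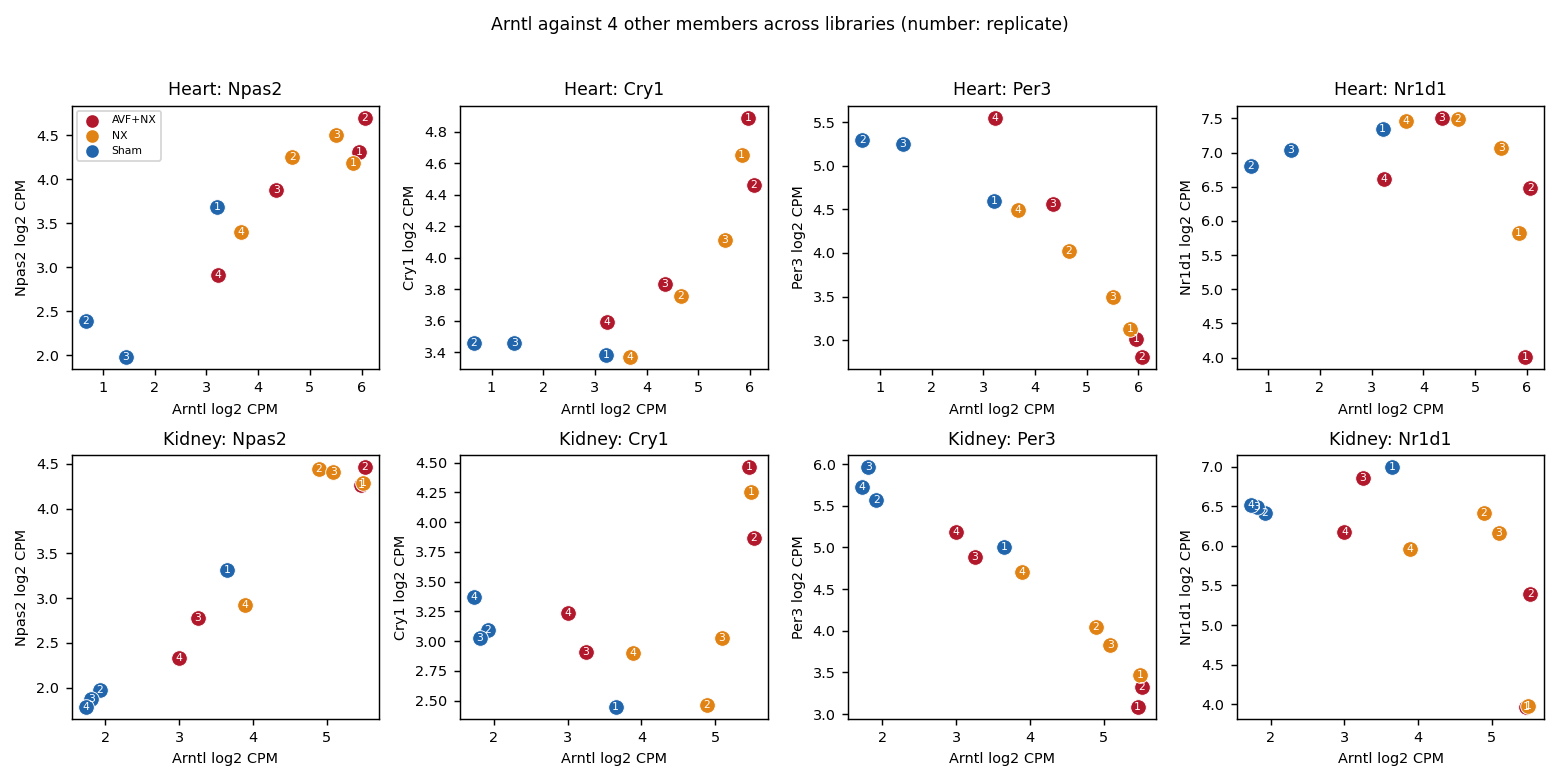
Log2 CPM of Npas2, Cry1, Per3 and Nr1d1 (vertical) against log2 CPM of Arntl (horizontal) in heart (top) and kidney (bottom), coloured AVF+NX, NX and Sham and numbered by replicate. Npas2 climbs and Per3 descends with Arntl in both organs, while Cry1 and Nr1d1 change mainly where Arntl is high.

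Over all genes tested with a mean of at least 1 CPM and a proper symbol, those most like Arntl were ranked by Pearson r across the libraries of an organ. In heart (11522 genes, 11 libraries) the 5 highest were Nsd2 (0.95), Fzd6, Npas2, Clock and Ckap4 (0.94 each), and the 5 lowest included Tef (-0.98), Ephx1 (-0.93) and Usp2 (-0.92). In kidney (12453 genes, 12 libraries) the 5 highest were Npas2 (0.98), Ccnjl (0.95), Eepd1 (0.94), Akt2 and Ppard (0.93 each), and the 5 lowest were Dbp, Tef and Per3 (-0.98 each), Ciart (-0.96) and Fsd1l (-0.95). Npas2 was thus among the 5 highest and Tef, a clock output factor of the same family as Dbp, among the 5 lowest in both organs. The median r over all ranked genes was 0.14 in heart and -0.01 in kidney.

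Heart and kidney libraries with the same group and replicate number had similar levels of these genes. The labels do not say that equal numbers in both organs are the same rat, and this comparison was chosen after the values were seen. The permutations ignored the surgical groups, so their p-values take in differences between groups as well as agreement of same-numbered libraries. Over 11 pairs of libraries r was 0.96 for Arntl (Spearman 0.94, permutation p = 1e-05, the smallest the permutations can give, adjusted over 10 relations 5e-05) and 0.96 for Per3 (adjusted permutation p = 5e-05). It was 0.94 for Npas2, 0.91 for Per1, 0.89 for Nr1d2, 0.87 for Cry1, 0.86 for Nr1d1, 0.85 for Cry2 and 0.75 for Per2. Clock had the lowest, 0.64 (adjusted permutation p = 0.0355, the highest of the 10), and Spearman rho ran from 0.64 to 0.95.

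Within groups the heart and kidney values had r of 0.95 for Arntl, 0.96 for Per3, 0.93 for Per1, 0.93 for Nr1d1 and 0.41 for Per2. Without the 2 pairs farthest from the median, r lay between 0.59 for Clock and 0.94 for Per3. The replicates of a group stood in the same order in heart and kidney for 6 of the 10 genes in AVF+NX, 5 in NX and 6 in Sham. Sham had 3 pairs and the operated groups 4 each, so the same order comes more easily by chance in Sham. Neither the order nor the r between organs was computed over all genes. Whether these genes stand out in this was not tested.

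**Figure D5:**
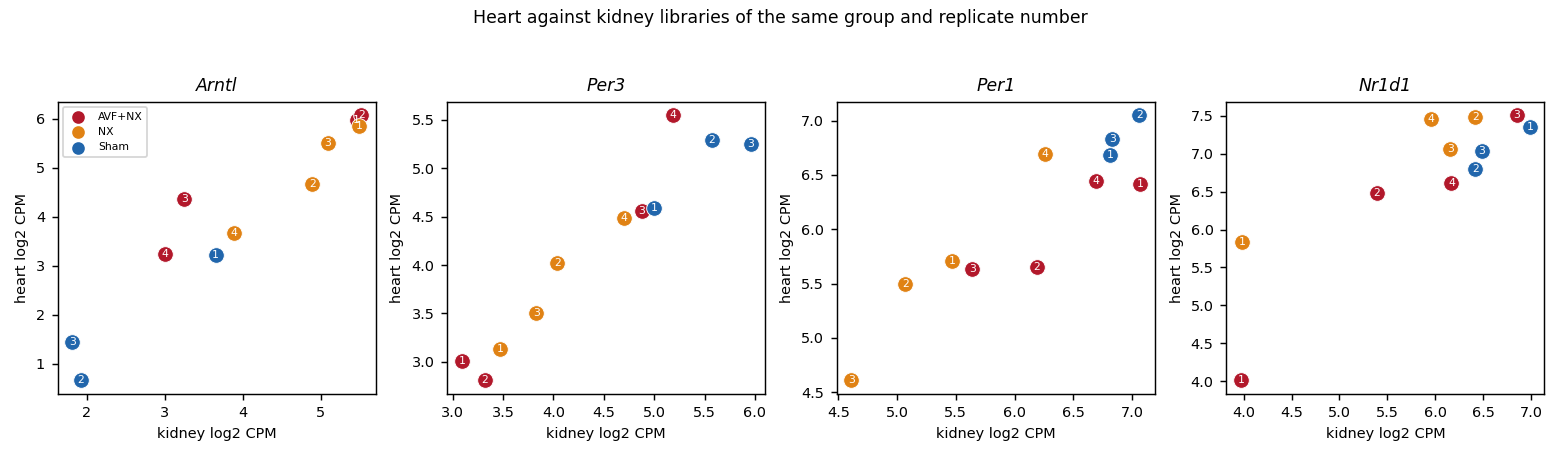
Log2 CPM in heart (vertical) against log2 CPM in kidney (horizontal) for Arntl, Per3, Per1 and Nr1d1 in the 11 pairs of libraries with the same group and replicate number, coloured AVF+NX, NX and Sham. The points lie along a rising line for Arntl and Per3 (r = 0.96 each), and more loosely for Per1 (0.91) and Nr1d1 (0.86).

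The genes around the loop were read from lists of related genes. Of 12 accessory and output genes 11 were tested in each organ, and in AVF+NX hearts against Sham 1 was higher and 4 were lower, where 34.1% of all genes were called. The output factors Tef (-0.88 ± 0.26, adjusted p = 0.0225) and Hlf (-1.29 ± 0.42, adjusted p = 0.0315) and the repressor Bhlhe41 (-1.39 ± 0.39, adjusted p = 0.0195) fell on the log2 scale. Rora, which codes for a ROR receptor that activates Arntl, rose by 0.39 ± 0.11 (adjusted p = 0.0148). Over the 11 genes the median log2 fold change was -0.62, against 0.01 for all genes.

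In AVF+NX kidneys against Sham 2 of 11 were higher and 3 lower, where 25.1% of all genes were called. Nfil3, a repressor that binds the D-box, rose by 2.32 ± 0.58 on the log2 scale (adjusted p = 0.0131), and Timeless, which overlaps another gene and is uncertain for that reason, rose by 0.93 ± 0.24 (adjusted p = 0.0140). Hlf fell by 0.90 ± 0.23 (adjusted p = 0.0140), and Rora fell by 0.47 ± 0.13 (adjusted p = 0.0215), opposite to its rise in heart. The organ difference for Rora was 0.95 ± 0.18 (adjusted p = 0.000911), in a test where 27.9% of all genes were called. In NX kidneys, where 1.31% of all genes were called, 0 were higher and 2 lower, Hlf at -1.20 ± 0.23 (adjusted p = 0.0345) and Usp2, a deubiquitinase under clock control, at -1.06 ± 0.23 (adjusted p = 0.0453). In NX hearts edgeR called 0 of 11, and 3 had an unadjusted p below 0.05.

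Of 13 kinases, ligases and other modifiers of clock proteins 12 were tested. In AVF+NX hearts against Sham 3 rose (Csnk1e by 0.25 ± 0.08, and the AMP-kinase subunits Prkaa1 by 0.32 ± 0.10 and Prkaa2 by 0.38 ± 0.12), with adjusted p from 0.0215 to 0.0285. In AVF+NX kidneys Prkaa2 alone was called, and it fell by 0.37 ± 0.12 (adjusted p = 0.0374). After NX edgeR called 0 of 12 in either organ, and 0 had an unadjusted p below 0.05.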

How the data were processed

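RNA was taken from snap-frozen tissue, poly(A)-selected and made into strand-specific paired-end libraries, per the labels' protocols. Each library's deposited file gives unnormalised read counts by gene, in the layout of featureCounts per the file headers. The submitters' processing notes list STAR 2.5.2b, Trimmomatic 0.36, Subread 1.5.2 and featureCounts. No source used here names the genome build, the annotation or the strand setting. The authors' deposited tables pair 15123 of 32552 gene identifiers with a symbol and give log2 fold changes, p-values and a normalised signal. Symbols, fold changes and adjusted p-values were used, and the normalised signal only to check the direction of the fold changes.

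Each organ's 3 groups were fitted together in edgeR 4.0.16 (R 4.3.3): filterByExpr kept 12794 heart and 14322 kidney genes, libraries were scaled by TMM, and the robust quasi-likelihood F test was adjusted by Benjamini-Hochberg over all genes tested, with calls at an adjusted p below 0.05. Organ differences (heart effect minus kidney effect) and sham levels came from 1 fit of all 23 libraries (15222 genes). That fit treated heart and kidney libraries as independent. Printed CPM use TMM factors over all 23 libraries, and log2 CPM a prior count of 2. Standard errors were derived from the fold change and its F statistic. Intervals are 95%. Correlations used 100000 permutations that ignored the surgical groups. The fitting code was tested on simulated data.

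The labels number biological replicates and do not name animals, so p-values measure the spread between these samples. Replicates differed beyond counting noise, and none was treated as a repeat.

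All 10 genes were described in every comparison. From each list of related genes those called were named, or the 4 with the smallest p where more were called. For likeness to Arntl the 5 highest and 5 lowest were named. Some genes that these rules give are not reported here. The genes and lists were chosen with earlier results of these data known. Alternatives were RLE scaling, no count filter, fits limited to the compared groups, the replicate number, log2 total count or an index of short structured RNA genes as a term, limma voom (limma 3.58.1), DESeq2 1.42.0 and leaving out each library.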

Additional observations from a re-analysis of the deposited data

Results flagged for a closer look

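Of 50 sets of replicates (10 genes in the 5 groups of 4), 5 held 1 library far from the others, where chance alone flags about 1 in 20. Arntl in Sham kidneys was 12.43 CPM in replicate 1, against 3.188 to 3.647 CPM in the other 3. Npas2 in Sham kidneys was 9.805 CPM in replicate 1, against 3.329 to 3.777 CPM in the others. Nr1d1 in Sham kidneys was 127 CPM in replicate 1, against 85.24 to 91.38 CPM. The same library thus gave 3 of the 5. Npas2 in NX kidneys was 7.418 CPM in replicate 4, against 19.4 to 21.65 CPM in the others. Clock in AVF+NX hearts was 98.59 CPM in replicate 4, against 134.4 to 139.1 CPM.

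The effect of AVF+NX over Sham on Clock differed between the organs by 0.61 on the log2 scale (adjusted p = 0.0376), with 0.58 ± 0.15 in heart and 0.06 ± 0.13 in kidney. In that test 27.9% of all genes were called. The call was kept in 5 of the 15 fits that left out 1 library, where the adjusted p reached 0.0979.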

How the results depend on the processing

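Over all 10 genes and tests, 19 of 650 fold changes changed sign under another tool, scaling, filter or term, and 70 of 990 when 1 library was left out, most of them near 0. With the log2 total count as a term, Per1 and Per3 in AVF+NX hearts against Sham were 0.01 and 0.07 and Clock in AVF+NX kidneys was -0.02; with limma voom Cry1 in NX kidneys was -0.02. Leaving out 1 library gave -0.19 to 0.22 for Nr1d1 in NX hearts, -0.03 to 0.13 for Clock in AVF+NX kidneys and -0.20 to 0.52 for Cry1 in NX kidneys, all against Sham, and -0.04 to 0.71 for Per1 in AVF+NX against NX hearts.

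Counts of the 10 genes called moved as follows, and the cause was not tested. AVF+NX hearts against Sham gave 3, but 0 with the log2 total count or the short structured RNA index as a term, 8 with limma voom and 1 to 7 without 1 library. NX hearts gave 0, but 6 with limma voom, 3 with DESeq2 and 0 to 1 without 1 library. AVF+NX kidneys gave 3, but 6 with limma voom and 0 to 5 without 1 library. NX kidneys gave 1, but 0 with no count filter, 6 with limma voom or DESeq2 and 0 to 2 without 1 library. AVF+NX against NX kidneys gave 0, but 1 (Per1) with the log2 total count, limma voom or DESeq2 and 0 to 1 without 1 library. The organ difference after AVF+NX gave 1, but 0 with the log2 total count and 0 to 1 without 1 library. Within an organ, equal replicate numbers were not taken to pair samples of different groups. The deviations of same-numbered samples from their group means, over all genes tested, did not correlate above 0.1 in every pair. They did in 1 of 10 heart pairs (-0.11 to 0.13) and 7 of 12 kidney pairs (-0.07 to 0.38), where the median was 0.17 against -0.01 for other pairs. The replicate block gave 7 in AVF+NX hearts, 1 in NX hearts, 6 in AVF+NX kidneys and 4 in NX kidneys, and 0 between the operated groups of either organ.

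Without Clock and Cry2 the balance of activators and repressors averaged -0.96, -0.87 and -3.74 in AVF+NX, NX and Sham hearts and -1.29, -0.45 and -3.62 in the same groups of kidneys. Over all genes, NX hearts against Sham had 0 called in edgeR, 2269 in limma voom and 351 in DESeq2. NX kidneys had 187, 595 and 809 and AVF+NX against NX hearts 43, 0 and 838 with the same tools.

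Precision was set by the spread between 3 or 4 samples a group. Total counts of 9069354 or more left all 10 genes above the low-count filter. Arntl still had only 88, 11 and 23 counts in Sham heart replicates 1, 2 and 3, and its heart fold changes over Sham rest on these.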

Other observations

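Genes that respond to glucocorticoids, hormones that also set peripheral clocks, gave a few calls in each organ. Of 8 listed, 7 were tested, and 2 were called in AVF+NX hearts, 3 in AVF+NX kidneys and 2 in NX kidneys, where 34.1%, 25.1% and 1.31% of all genes were called against Sham. In AVF+NX hearts against Sham 2 rose, Fkbp5 (0.76 ± 0.16 on the log2 scale, adjusted p = 0.00441), which codes for a chaperone partner of the glucocorticoid receptor, and the kinase gene Sgk1 (0.70 ± 0.24, adjusted p = 0.0429). In AVF+NX kidneys 1 rose, the cell-cycle inhibitor Cdkn1a (2.12 ± 0.31, adjusted p = 0.000558), and 2 fell, Klf9 (-0.49 ± 0.13, adjusted p = 0.0146) and Errfi1 (-0.42 ± 0.14, adjusted p = 0.0432). In NX hearts edgeR called 0 of 7, and 1 had an unadjusted p below 0.05. In NX kidneys Cdkn1a rose (1.48 ± 0.31, adjusted p = 0.0441) and Errfi1 fell (-0.90 ± 0.14, adjusted p = 0.0186). The difference between the organs after AVF+NX was called for Errfi1 alone of the 7 (1.16 ± 0.37, adjusted p = 0.0243), where 27.9% of all genes were called.

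Of 10 immediate early genes, which respond to handling and tissue collection within minutes, Junb fell in AVF+NX hearts (-1.29 ± 0.40, adjusted p = 0.0309), and Fosb (1.64 ± 0.50, adjusted p = 0.0331) and Atf3 (1.17 ± 0.38, adjusted p = 0.0420) rose in AVF+NX kidneys, each against Sham. These 1 of 10 and 2 of 10 lie below the shares of all genes called, 34.1% in heart and 25.1% in kidney. After NX edgeR called 0 of 10 in either organ, and 0 had an unadjusted p below 0.05.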
